A study of Homo sapiens with 12 samples.

Results

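The 47 genes examined here encode the route by which a Gq-coupled receptor raises calcium and activates protein kinase C, with the proteins that end or read that signal. They cover 7 roles: G protein alpha subunits, phospholipases C, protein kinases C and D, IP3 receptors, diacylglycerol kinases, the calcineurin, NFAT and RCAN group, and arrestins with RGS proteins. Members were taken by gene symbol from the annotation of the array, and 46 of the 47 were matched, through 147 probe sets, among 19775 genes in all. ARRB2 was not matched. A probe set is a group of short probes that reads 1 transcript region, and the brightest probe set of a gene, by its mean over all arrays, stood for the gene.

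RNA was profiled in Ishikawa cells, an established human endometrial adenocarcinoma line, on 12 Affymetrix U133 Plus arrays in 4 groups of 3. The groups received GPR54 siRNA and 10 µM metastin-10, GPR54 siRNA and control peptide, negative control siRNA and 10 µM metastin-10, or negative control siRNA and control peptide. All cells carried an siRNA for 48 h before the peptide, which then stayed on for 24 h. The study's question was which genes respond to the peptide, and whether its receptor is needed. Each group is a transfected population of the 1 line. The labels call its arrays biological replicates without naming separate cultures, so p-values measure only the spread between these samples.

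Metastin-10, or kisspeptin-10, is the short peptide that binds GPR54, the product of KISS1R. GPR54 couples to Gq, which switches on phospholipase C beta. That enzyme splits a membrane phosphoinositide into IP3, which opens calcium channels of the endoplasmic reticulum, and diacylglycerol, which recruits protein kinase C. Calcium then activates the phosphatase calcineurin, which lets NFAT factors enter the nucleus. RGS proteins end the signal at the G protein, diacylglycerol kinases remove diacylglycerol, and arrestins uncouple the receptor. Kisspeptin signalling has been studied in endometrial cancer mainly for cell migration and invasion. The arrays read mRNA, not the activity of these proteins.

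The siRNA target was read first, because it checks the labels, and arrays labelled GPR54 siRNA are called GPR54-labelled. KISS1R stood at 9.60, 9.42 and 9.28 on the log2 scale in the GPR54-labelled arrays given metastin-10, and at 9.46, 9.45 and 9.36 in those given control peptide. It stood at 8.43, 8.42 and 8.35 with control siRNA and metastin-10, and at 9.39, 9.32 and 9.14 with control siRNA and control peptide. With control peptide, the difference of the siRNA labels was 0.14 (95% interval -0.07 to 0.35), so KISS1R was not lower in the GPR54-labelled arrays. The lowest arrays were the 3 with control siRNA and metastin-10, below control peptide by a log2 difference of -0.88 (-1.09 to -0.67, limma adjusted p = 0.0021). A single probe set reads KISS1R. KISS1, which encodes the ligand, averaged between 4.21 and 4.26 in the 4 groups. No direction drawn from the GPR54-labelled arrays is therefore a test of lower GPR54. The position of the siRNA relative to the probe set is not given in the sources used here, and whether the labels match the transfections was not tested, which holds for the arrays labelled control siRNA as well.

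In every group, replicate 3 differed from replicates 1 and 2 in an array control measure. The actin 3 prime minus 5 prime difference, a sign of RNA integrity and labelling, was 0.29 to 0.36 (log2) in replicate 3, against 0.66 to 0.90 in the others. For GAPDH it was -0.09 to -0.07 against -0.03 to 0.04. A lower value means a smaller excess of 3 prime signal and does not by itself mark poorer arrays. On the first principal component, which held 27.7% of the variance, the replicate 3 arrays lay at 0.24 to 0.51 against -0.37 to 0.20. On the second, which held 21.4%, replicates 1 and 2 of the group given control siRNA and metastin-10 were highest, at 0.66 and 0.46, while replicate 3 of that group lay at -0.25. All 7 epithelial markers measured had mean values of 7.81 to 13.99, and the labelled cell type is an epithelial cancer, while of the 5 endometrial markers PAX8, SOX17 and ESR1 stood at 10.81, 10.84 and 8.59, and FOXA2 and PGR at 4.81 and 4.38. The 4 leukocyte markers lay between 3.48 and 5.20, the 5 endothelial ones between 3.05 and 6.97, the 5 of smooth muscle and pericytes between 4.56 and 6.04, and the 8 of fibroblasts between 2.56 and 9.84, the highest being COL1A1.

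Of the 46 members, 1 passed an adjusted p of 0.05 in any of the 5 comparisons (2.17%), against 222 of the 19775 genes (1.12%). It was RGS16, in the comparison of the siRNA labels with metastin-10. The comparisons set metastin-10 against control peptide within each siRNA label and the GPR54 label against control siRNA within each peptide. The interaction is the metastin-10 difference in the GPR54-labelled arrays minus that under control siRNA. Comparisons that have a group in common share its arrays: metastin-10 under control siRNA and the siRNA labels with metastin-10 share the 3 arrays that received control siRNA and metastin-10. In bulk RNA, fewer cells expressing a gene and less of its RNA per cell cannot be told apart. The number of arrays limits the precision. The background level is unknown, so differences of dim probe sets may be compressed.

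Under control siRNA, 0 of 46 members passed with metastin-10 (0.607% of all genes did). At an unadjusted p under 0.05, 4 members passed (11.9% of all genes), and the arrays of the 2 groups did not overlap for 9 (19.6% of all genes). The median log2 difference was -0.02 in the members and 0.01 in all genes, and the median absolute difference was 0.118 and 0.101. The members' shares were thus near those of all genes. These values come from the fit without a block. With the replicate number as a block, 1 of 46 members passed, RGS16, and 202 of the 19775 genes. In the GPR54-labelled arrays, metastin-10 gave 0 members (0% of all genes), 1 at an unadjusted p under 0.05 (1.81% of all genes) and 3 without overlap (4.68% of all genes). Here the median absolute difference was 0.042 in the members and 0.051 in all genes.

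With control peptide, the siRNA labels gave 0 members past the adjusted threshold (0% of all genes), 1 at the unadjusted one (2.8% of all genes) and 4 without overlap (9.23% of all genes). With metastin-10, the labels gave 1 member (1.04% of all genes), 4 at the unadjusted threshold (13.1% of all genes) and 8 without overlap (17.5% of all genes). The interaction gave 0 members (0.106% of all genes) and 2 at the unadjusted threshold (6.28% of all genes). In the 4 pairwise comparisons, 19691 to 19769 of the 19775 genes had pointwise 95% intervals within 1 log2 unit of 0. The intervals of all 46 members lay there too. They lay within 0.5 for 36 members with metastin-10 under control siRNA (78.3%, against 82.4% of all genes). In the GPR54-labelled arrays they did so for 44 (95.7%, against 93.2% of all genes).

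**Figure D1:**
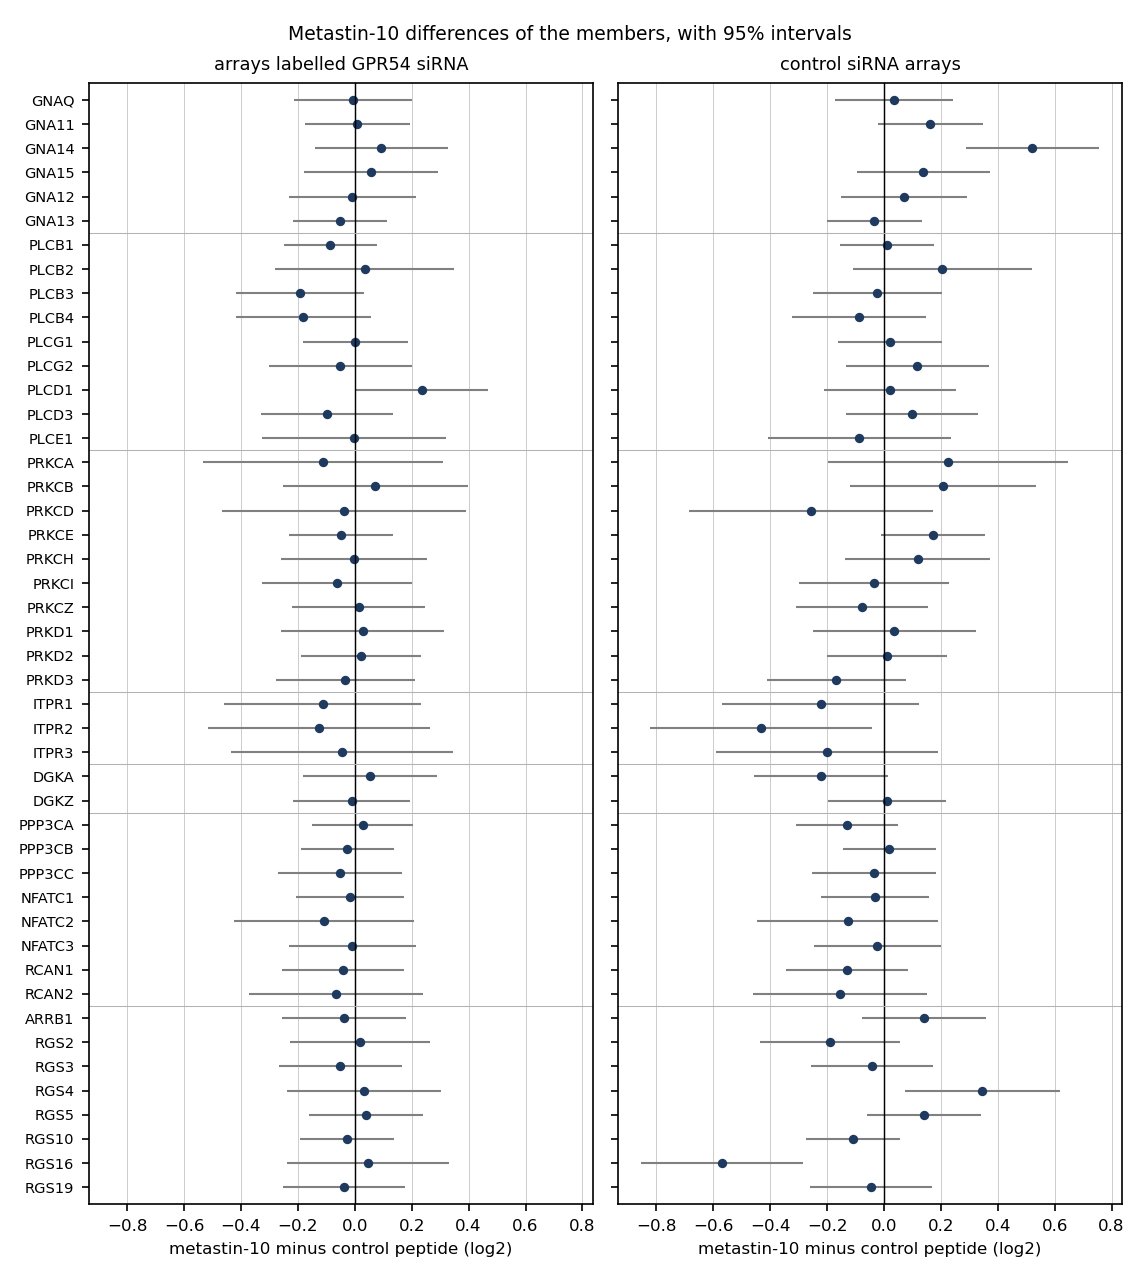
Log2 difference with metastin-10 against control peptide for the 46 members, grouped by role, in the GPR54-labelled arrays (left) and under control siRNA (right). Points are limma estimates and bars their 95% intervals, with 3 arrays a group. Under control siRNA the interval excludes 0 for 4 members, and in the GPR54-labelled arrays for 1.

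RGS16 and GNA14 carried the widest differences with metastin-10 under control siRNA. RGS16 speeds GTP hydrolysis by Gi and Gq alpha subunits and so shortens the signal, while GNA14 encodes a Gq-family alpha subunit. Their promoters are shown because these 2 genes act at the receptor's G protein and differed most. They come from RefSeq on GRCh38.p14 and run from 250 bases before to 50 after the gene start. RGS16 lies at chr1:182604340-182604639 and GNA14 at chr9:77648273-77648572, both on the minus strand. Capitals mark GGAAA, the core of the NFAT site, or its reverse complement TTTCC.
RGS16: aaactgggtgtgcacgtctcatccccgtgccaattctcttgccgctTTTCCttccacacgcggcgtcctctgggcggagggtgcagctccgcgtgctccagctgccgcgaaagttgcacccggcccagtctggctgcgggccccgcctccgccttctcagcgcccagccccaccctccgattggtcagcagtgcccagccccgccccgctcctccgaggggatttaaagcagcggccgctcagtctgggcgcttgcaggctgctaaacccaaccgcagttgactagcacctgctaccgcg
GNA14: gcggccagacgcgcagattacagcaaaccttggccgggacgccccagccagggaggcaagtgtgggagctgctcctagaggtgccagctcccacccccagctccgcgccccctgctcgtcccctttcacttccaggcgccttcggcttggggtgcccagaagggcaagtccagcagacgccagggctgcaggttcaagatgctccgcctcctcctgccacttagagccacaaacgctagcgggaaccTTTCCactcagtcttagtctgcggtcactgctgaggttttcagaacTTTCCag
The RGS16 window held 1 such match and the GNA14 window 2, on both strands counted together, and 61.2% of 35116 promoters held at least 1. Neither window held TGANTCA, the AP-1 motif (7.71% of promoters), or TGACGTCA, the CRE motif (1.85%). Promoters of 36 members were in the table, 70 in all, and 32 of the 70 held GGAAA (45.7%). Counted by gene, 23 of the 36 members held it in at least 1 promoter (63.9%). The share by gene was not taken over all genes.

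RGS16 stood at 7.24, 7.09 and 6.77 in the GPR54-labelled arrays given metastin-10 and at 7.12, 6.98 and 6.87 in those given control peptide. It stood at 6.44, 6.47 and 6.22 with control siRNA and metastin-10, and at 7.01, 7.07 and 6.74 with control siRNA and control peptide. The 3 arrays with control siRNA and metastin-10 were the lowest of the 12, and the other 3 groups overlapped each other. With metastin-10, RGS16 was higher in the GPR54-labelled arrays than with control siRNA by 0.66 (0.37 to 0.94), a 1.58-fold difference, with a limma adjusted p of 0.0462. The means were 7.03 ± 0.24 and 6.37 ± 0.14 (SD, n = 3 each). This call lies just inside the threshold and is lost when any 1 of 10 arrays is left out, with adjusted p between 0.0163 and 0.229 over the 12 omissions. The 2 omissions that kept it were replicate 3 of the GPR54 label with metastin-10 and replicate 3 of control siRNA with control peptide. Of the 7 epithelial markers, 5 lay above 0 there and 2 below, with a median of 0.13. Called higher were KRT19 by 0.59 (limma adjusted p = 0.0017) and MUC1 by 0.57 (limma adjusted p = 0.0307). KRT18 averaged 13.97 and EPCAM 13.01 in the GPR54-labelled arrays given metastin-10, against 13.98 and 13.03 with control siRNA and metastin-10. The summed level of the 7 was 15.29 to 15.37 (log2) in the GPR54-labelled arrays given metastin-10, against 15.20 to 15.25 with control siRNA and metastin-10. The part of the markers in the RGS16 value was not tested.

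Under control siRNA, RGS16 differed with metastin-10 by -0.57 (-0.85 to -0.28), a 1.48-fold difference, at a limma adjusted p of 0.104. Fitted with the replicate number as a block, limma gave an adjusted p of 0.012, so the block changes this call. All 7 epithelial markers lay below 0 in this comparison, where 52.0% of all genes lay above 0. KRT19 was called, at -0.48 (limma adjusted p = 0.0090). In the GPR54-labelled arrays the metastin-10 difference was 0.04 (-0.24 to 0.33), and with control peptide the siRNA labels differed by 0.04. The interaction was 0.61 (0.21 to 1.02) at a limma adjusted p of 0.52 and did not pass.

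RGS16 has a pair of dimmer probe sets. The first stood at 6.77, 6.78 and 6.19 in the GPR54-labelled arrays given metastin-10 and at 6.28, 6.11 and 6.19 with control siRNA and metastin-10. That is a difference of 0.38 (0.03 to 0.74, limma adjusted p = 0.449), and replicate 3 of the GPR54 label lay within the control siRNA values. The second, with a mean of 3.29, differed by -0.03 (-0.21 to 0.15). Both lay lower with metastin-10 than with control peptide under control siRNA, by -0.31 (-0.66 to 0.05) and -0.20 (-0.38 to -0.02), neither past the adjusted threshold. In the comparison of the labels with metastin-10, the call thus rests on 1 of the 3 probe sets.

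GNA14 stood at 4.96, 4.88 and 4.92 in the GPR54-labelled arrays given metastin-10 and at 4.87, 4.80 and 4.79 in those given control peptide. It stood at 5.42, 5.31 and 5.07 with control siRNA and metastin-10, and at 4.54, 4.79 and 4.90 with control siRNA and control peptide. All 3 arrays with control siRNA and metastin-10 lay above every other array. Under control siRNA the metastin-10 difference was 0.52 (0.29 to 0.76), 1.44-fold, at a limma adjusted p of 0.0681. In the GPR54-labelled arrays it was 0.09 (-0.14 to 0.33), and the interaction was -0.43 (-0.76 to -0.10, limma adjusted p = 0.636). With metastin-10 the siRNA labels differed by -0.35 (-0.58 to -0.11, limma adjusted p = 0.264). The mean of 4.94 is among the dimmer members. The other GNA14 probe set differed by 0.21 (-0.28 to 0.69) with metastin-10 under control siRNA, by -0.07 (-0.56 to 0.41) between the labels with metastin-10, and by -0.04 (-0.73 to 0.64) in the interaction.

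**Figure D2:**
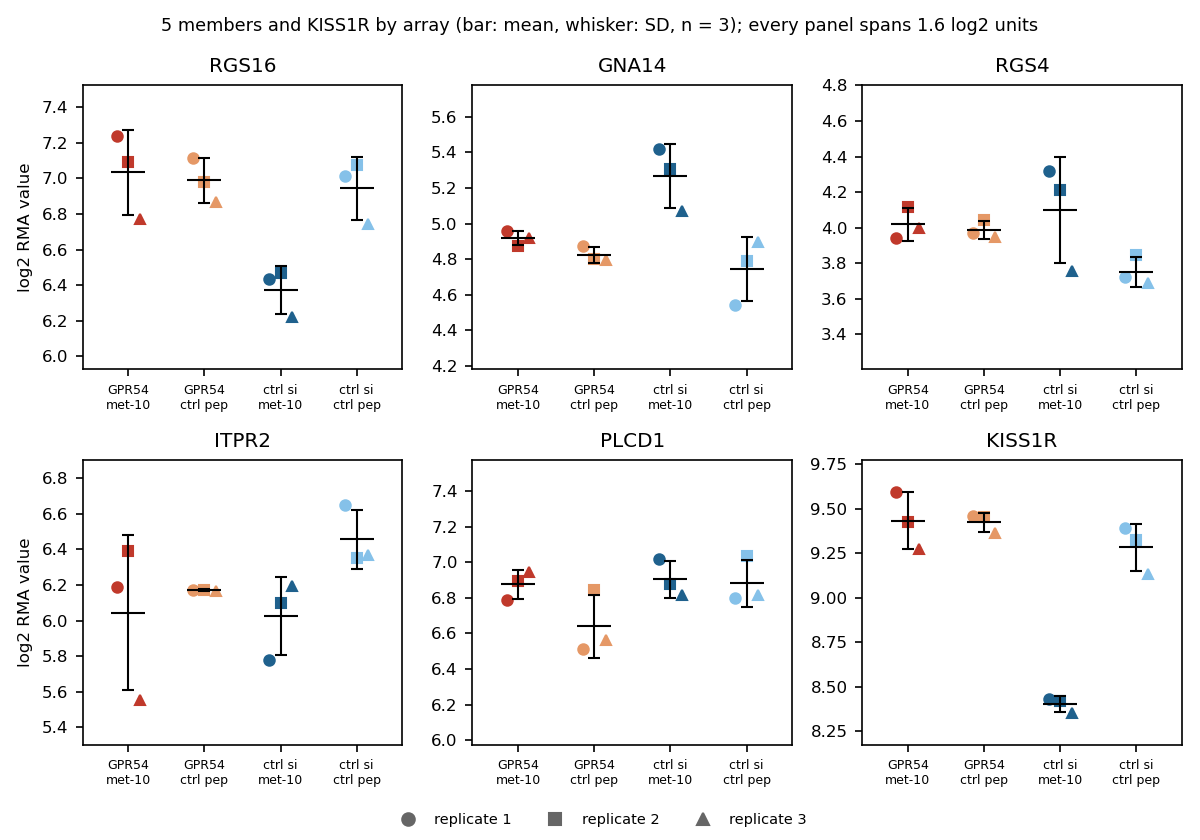
Log2 values of selected members on each of the 12 arrays, by group, with the GPR54-labelled arrays left of control siRNA and metastin-10 left of control peptide. Symbols give the replicate number, bars the mean and whiskers the SD (n = 3). RGS16 is lowest, and GNA14 highest, in the 3 arrays with control siRNA and metastin-10.

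Among the other alpha subunits, GNAQ and GNA11 are the pair that carries most Gq signalling, GNA15 is a Gq-family subunit known from blood cells, and GNA12 and GNA13 form a family of their own. Under control siRNA, 5 of 6 subunits lay above 0 with metastin-10 (52.0% of all genes did), with a median of 0.10. GNA11 stood at 9.14, 9.31 and 9.34 with control siRNA and metastin-10 and at 9.0, 9.08 and 9.21 with control siRNA and control peptide, a difference of 0.16 (-0.02 to 0.35, limma adjusted p = 0.527). GNAQ differed by 0.04 (-0.17 to 0.24) and GNA13 by -0.03 (-0.20 to 0.13). In the GPR54-labelled arrays the subunits other than GNA14 differed with metastin-10 by between -0.05 and 0.06. GNA15 stood at 4.20, 4.27 and 4.19 in the GPR54-labelled arrays given control peptide and at 4.05, 4.08 and 3.89 with control siRNA and control peptide. That difference of 0.22 (-0.02 to 0.45) came without overlap of the groups, and its limma adjusted p was 0.9998.

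None of the 9 phospholipases C passed in any of the 5 comparisons. They are the beta isoforms driven by Gq, the gamma isoforms driven by tyrosine kinases, and the delta and epsilon isoforms. PLCD1, a calcium-dependent isoform, gave the smallest unadjusted p of the members in both comparisons that involve the GPR54 label with control peptide. It stood at 6.79, 6.89 and 6.95 in the GPR54-labelled arrays given metastin-10 and at 6.52, 6.84 and 6.56 in those given control peptide. It stood at 7.02, 6.88 and 6.82 with control siRNA and metastin-10, and at 6.80, 7.03 and 6.82 with control siRNA and control peptide. The metastin-10 difference in the GPR54-labelled arrays was 0.23 (0.00 to 0.47), and the difference of the labels with control peptide was -0.24 (-0.47 to -0.01), both with limma adjusted p near 1. These 2 comparisons share the low GPR54-labelled arrays given control peptide, 2 of which lie below the other 10.

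A single probe set reads PLCB3, of a design that may cross-react. PLCB3 stood at 6.16, 6.28 and 6.19 in the GPR54-labelled arrays given metastin-10 and at 6.28, 6.48 and 6.46 in those given control peptide. The difference was -0.19 (-0.42 to 0.03), and it was also -0.19 (-0.42 to 0.03) against control siRNA with metastin-10, both using the same GPR54-labelled arrays. PLCB4 differed by -0.18 (-0.42 to 0.06) with metastin-10 in the GPR54-labelled arrays. PLCB1, whose mean is among the 5 highest, ranged only from 9.81 to 10.03 over the 12 arrays. Under control siRNA the widest phospholipase C difference with metastin-10 was that of PLCB2, a beta isoform known from blood cells, at 0.20 (-0.11 to 0.52). PLCG2 differed there by 0.12 (-0.13 to 0.37), with all 3 metastin-10 arrays, at 8.72, 8.71 and 8.69, above the control peptide ones, at 8.67, 8.62 and 8.49. With metastin-10, 7 of the 9 lay lower in the GPR54-labelled arrays than with control siRNA, with a median of -0.13. In that comparison 50.2% of all genes lay above 0.

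The 10 protein kinases C and D gave no call either. PRKCA, a conventional isoform that needs calcium and diacylglycerol, stood at 6.32, 6.18 and 5.80 in the GPR54-labelled arrays given metastin-10 and at 6.44, 6.23 and 5.96 in those given control peptide. It stood at 6.40, 6.59 and 6.26 with control siRNA and metastin-10, and at 6.34, 6.50 and 5.74 with control siRNA and control peptide. The groups overlap. The labels differed with metastin-10 by -0.32 (-0.74 to 0.10), and metastin-10 differed from control peptide under control siRNA by 0.22 (-0.20 to 0.65). PRKCE, a calcium-independent isoform, differed by 0.17 (-0.01 to 0.35) with metastin-10 under control siRNA, where its arrays at 6.17, 6.25 and 6.13 lay above those with control peptide at 6.04, 6.12 and 5.88.

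PRKCD, a further calcium-independent isoform, differed by -0.26 (-0.68 to 0.17) with metastin-10 under control siRNA, with limma adjusted p of 0.681. PRKD3, a protein kinase D that diacylglycerol also recruits, differed by -0.17 (-0.41 to 0.08). PRKCI, an atypical isoform that needs neither calcium nor diacylglycerol, had a mean among the 5 highest and differed by -0.03 (-0.30 to 0.23). PRKCB and PRKD1 were among the 5 lowest means, and PRKD1 ranged from 2.54 to 3.10. Among these 10 kinases, 6 lay above 0 with metastin-10 under control siRNA (52.0% of all genes) and 4 in the GPR54-labelled arrays (44.2% of all genes).

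The 3 IP3 receptors release calcium from the endoplasmic reticulum. With metastin-10 under control siRNA their brightest probe sets all lay below 0, at -0.43 for ITPR2, -0.22 for ITPR1 and -0.20 for ITPR3. Of all genes, 52.0% lay above 0 there. The next brightest ITPR1 probe set, with a mean of 4.41 against 4.42, did not repeat this, at 4.84, 4.51 and 4.13 against 4.36, 4.41 and 4.41. That of ITPR3 was lower, at 7.80, 7.87 and 7.55 against 7.98, 8.09 and 7.57. ITPR2 stood at 6.19, 6.39 and 5.56 in the GPR54-labelled arrays given metastin-10 and at 6.17, 6.17 and 6.17 in those given control peptide. It stood at 5.78, 6.10 and 6.20 with control siRNA and metastin-10, and at 6.65, 6.35 and 6.37 with control siRNA and control peptide. The control siRNA groups did not overlap, and the interval was -0.82 to -0.04 at a limma adjusted p of 0.427. With control peptide, the labels differed by -0.29 (-0.68 to 0.11), again without overlap and against the same control arrays, but the most variable ITPR2 probe set gave 0.0289. Another ITPR2 probe set differed by -0.30 (-0.53 to -0.07, limma adjusted p = 0.342) with metastin-10 under control siRNA. The dimmest was also lower there, at 3.73, 4.13 and 4.20 against 4.35, 4.44 and 4.27. The remaining one, with a mean of 5.12, did not repeat this, at 5.28, 5.02 and 5.31 against 4.93, 5.01 and 5.32.

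Diacylglycerol kinases turn diacylglycerol into phosphatidic acid. DGKA stood at 6.55, 6.74 and 6.33 in the GPR54-labelled arrays given metastin-10 and at 6.44, 6.57 and 6.44 in those given control peptide. It stood at 6.42, 6.26 and 6.20 with control siRNA and metastin-10, and at 6.48, 6.60 and 6.46 with control siRNA and control peptide. Under control siRNA the metastin-10 arrays lay below the control peptide ones, by -0.22 (-0.46 to 0.01, limma adjusted p = 0.5). The labels differed with metastin-10 by 0.25 (0.01 to 0.48, limma adjusted p = 0.469). A second DGKA probe set differed there by 0.39 (0.13 to 0.65, limma adjusted p = 0.27). DGKZ differed by 0.01 (-0.20 to 0.22) with metastin-10 under control siRNA.

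Calcineurin and its readers did not pass. PPP3CA, PPP3CB and PPP3CC encode the catalytic subunits, NFATC1, NFATC2 and NFATC3 the transcription factors, and RCAN1 and RCAN2 inhibitors, of which RCAN1 is a known NFAT target. Under control siRNA, 7 of these 8 genes had metastin-10 differences below 0, where 52.0% of all genes lay above 0. All 8 differences lay between -0.15 and 0.02, and all 8 intervals within 0.5 of 0. RCAN1 stood at 8.31, 8.46 and 8.47 with control siRNA and metastin-10 and at 8.52, 8.71 and 8.41 with control siRNA and control peptide, an overlapping difference of -0.13 (-0.35 to 0.08). A dim RCAN1 probe set, with a mean of 4.10, differed the other way, by 0.35 (0.10 to 0.60, limma adjusted p = 0.287). NFATC1 differed between the labels by 0.15 (-0.04 to 0.34) with metastin-10 and by 0.13 (-0.06 to 0.32) with control peptide, without overlap in either comparison. Its next brightest probe set overlapped with control peptide, at 5.95, 6.13 and 6.17 with the GPR54 label and 6.09, 6.08 and 6.19 with control siRNA. Its dimmest, with a mean of 4.47, lay the other way with metastin-10, at 4.29, 4.37 and 4.37 against 4.67, 4.41 and 4.51. PPP3CB differed by 0.12 (-0.05 to 0.28) between the labels with control peptide.

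Among the other RGS proteins, RGS2 and RGS4 both act on Gq. RGS4 stood at 3.94, 4.12 and 4.0 in the GPR54-labelled arrays given metastin-10 and at 3.97, 4.04 and 3.95 in those given control peptide. It stood at 4.32, 4.21 and 3.76 with control siRNA and metastin-10, and at 3.72, 3.84 and 3.69 with control siRNA and control peptide. Under control siRNA the metastin-10 difference was 0.35 (0.08 to 0.62, limma adjusted p = 0.345), and replicate 3, at 3.76, lay among the control peptide values. With control peptide the labels differed by 0.24 (-0.04 to 0.51) without overlap, but the most variable RGS4 probe set gave -0.18.

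RGS2 stood at 7.59, 7.50 and 7.51 in the GPR54-labelled arrays given metastin-10 and at 7.28, 7.19 and 7.35 with control siRNA and metastin-10. The difference was 0.26 (0.02 to 0.51, limma adjusted p = 0.46), without overlap. RGS2 differed by -0.19 (-0.43 to 0.06) with metastin-10 under control siRNA. RGS10 differed there by -0.11 (-0.27 to 0.06), RGS5 by 0.14 (-0.06 to 0.34), RGS3 by -0.04 and RGS19 by -0.05. ARRB1, the arrestin measured, differed by 0.14 (-0.08 to 0.36). With control peptide, all 8 arrestin and RGS members lay above 0 in the GPR54-labelled arrays against control siRNA, between 0.04 and 0.24, and none passed. In that comparison 59.4% of all genes lay above 0.

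**Figure D3:**
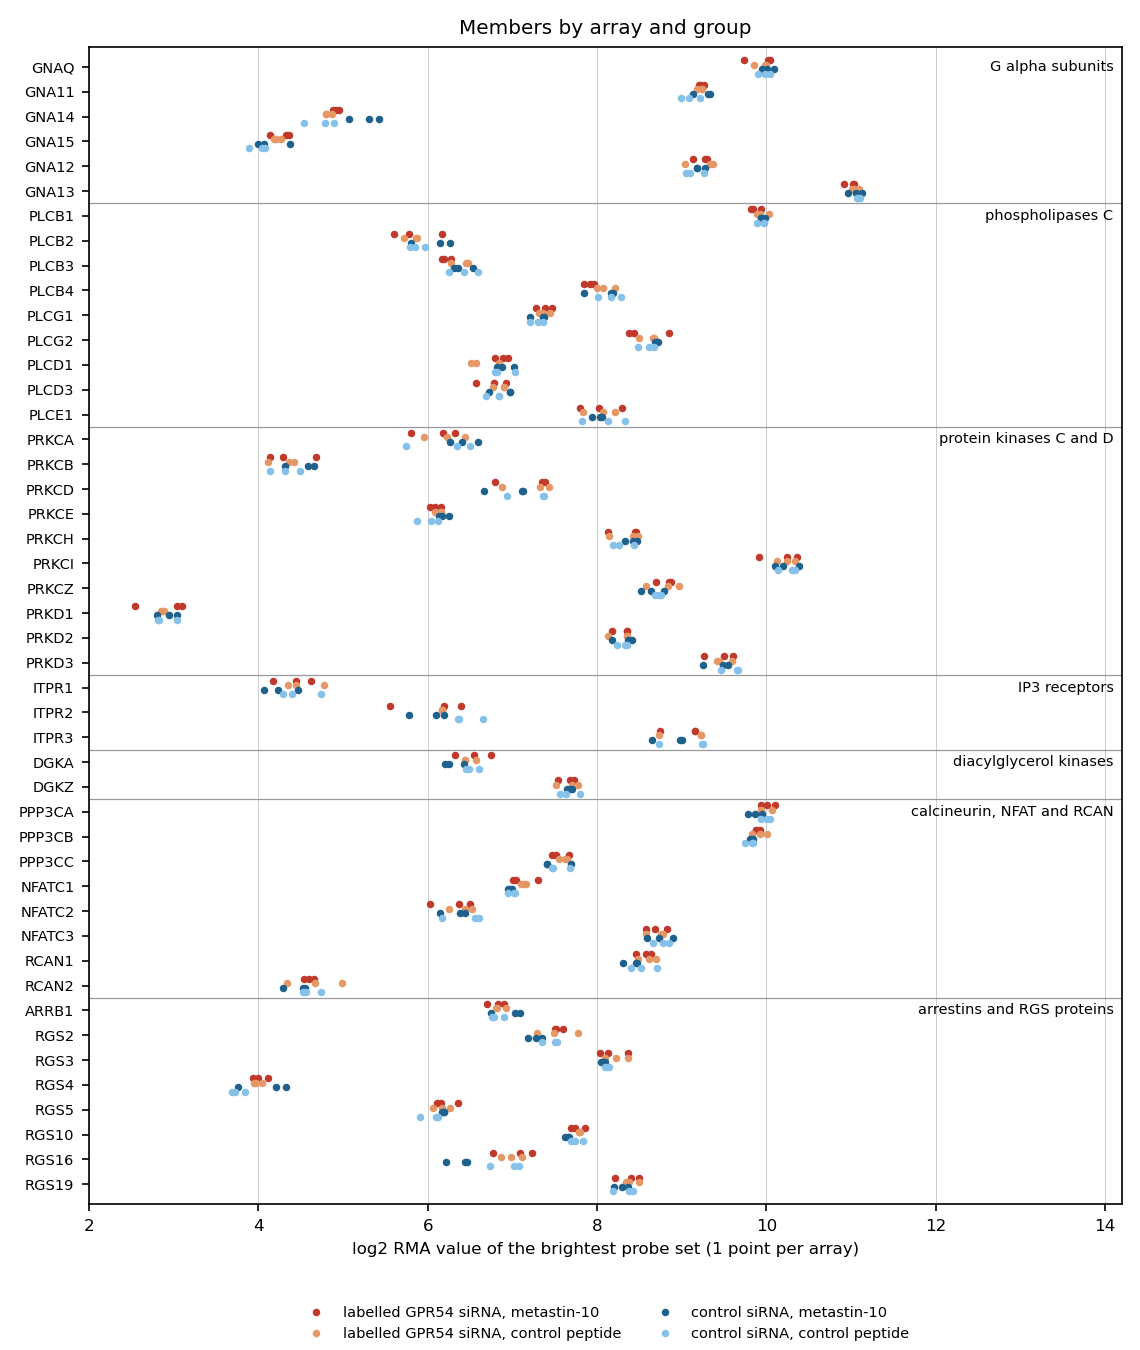
Log2 values of the 46 members on every array, by role, with the groups in the order GPR54 label with metastin-10, GPR54 label with control peptide, then control siRNA first with metastin-10 and last with control peptide. The spread over the 12 arrays is under 1 log2 unit for 44 members.

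Over the 12 arrays the range of the members was 0.21 to 1.09, under 1 for 44 of 46 (95.7%, against 98.2% of all genes), and the residual SD had a median of 0.129 against 0.133 for all genes. The brightest probe set had a mean under 5 for 7 members, namely GNA14, GNA15, PRKCB, PRKD1, ITPR1, RCAN2 and RGS4, and of at least 8 for 20. It is designed to read 1 transcript for 31 members. For 13 the design lets it read several transcripts of a family, and for 2, PLCB3 and PLCD3, it may also cross-react. The 101 other probe sets, over 38 members, gave 0 calls in limma in each of the 5 comparisons. At an unadjusted p under 0.05 the counts were 7 with metastin-10 under control siRNA (6.93%, against 10.6% of all probe sets) and 4 in the GPR54-labelled arrays (3.96%, against 2.21%). They were 2 for the labels with control peptide (1.98%, against 4.25%), 7 for the labels with metastin-10 (6.93%, against 10.1%) and 3 for the interaction (2.97%, against 6.09%).

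The members also differed by replicate number. In all 4 groups, replicate 3 lay below the mean of replicates 1 and 2 for 17 of 46 members (37.0%), against 19.1% of all genes, and above it for 1, RGS5 (2.17%, against 9.73%). The median of the mean difference was -0.10 in the members and -0.01 in all genes. PRKCD lay furthest, at -0.49, followed by ITPR3 and PRKCA at -0.44 each, and RGS16 lay at -0.28. The actin difference given above is lower in the same arrays. Its part in these values was not tested.

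**Figure D4:**
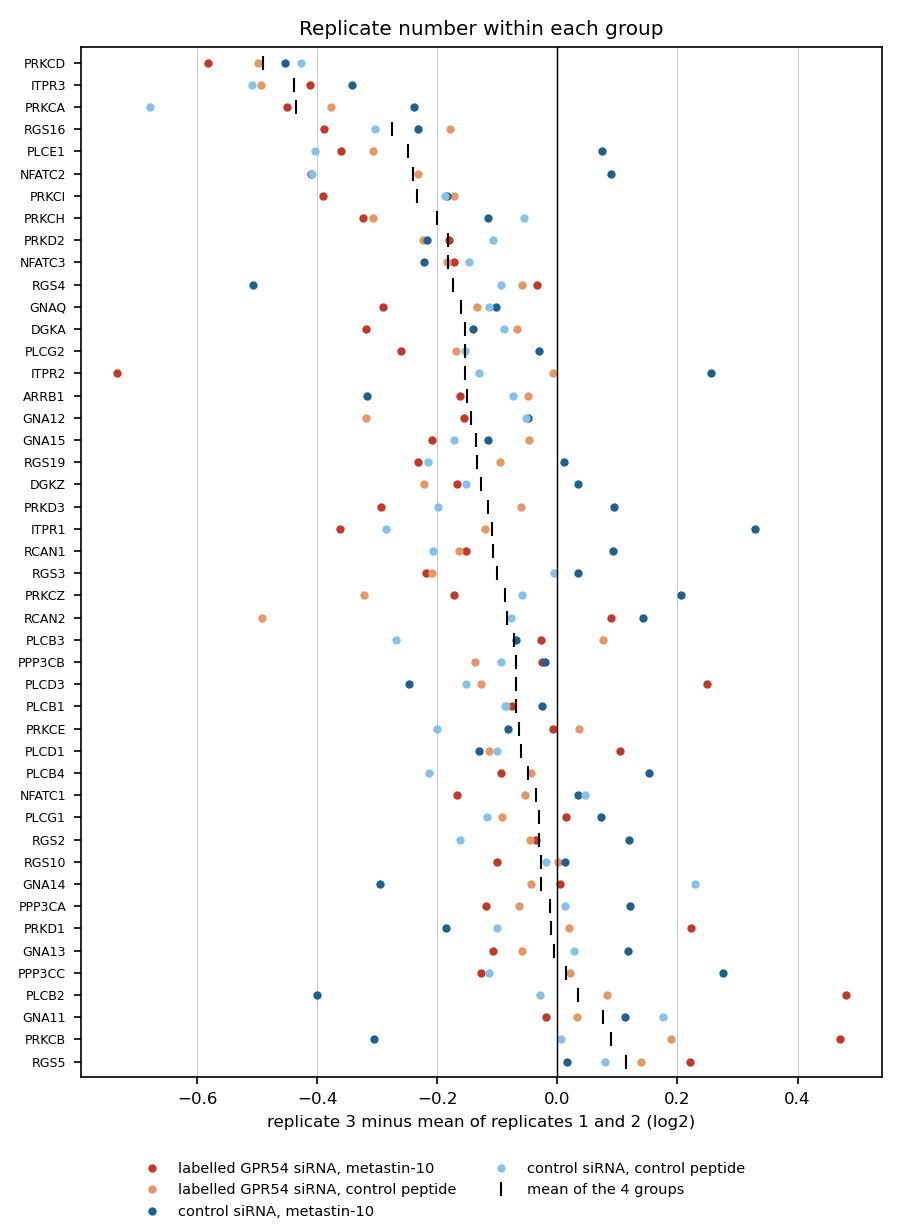
Replicate 3 minus the mean of replicates 1 and 2 within each group (log2) for the 46 members, sorted by the mean of the 4 groups, which the black ticks mark. For 17 members all 4 points lie below 0, and for RGS5 all 4 lie above it.

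The other genes of the pathway were read from a further list of 135 genes, of which 125 were matched, in 10 groups from G protein beta and gamma subunits to calcium pumps and phosphoinositide enzymes. In limma 0 of the 125 passed in each of the 5 comparisons. At an unadjusted p under 0.05, 3 lay higher and 6 lower with metastin-10 under control siRNA (7.2%, against 11.9% of all genes), and 0 higher and 2 lower in the GPR54-labelled arrays (1.6%, against 1.81%). The labels gave 1 higher and 2 lower with control peptide (2.4%, against 2.8%) and 9 higher and 9 lower with metastin-10 (14.4%, against 13.1%), and the interaction 3 and 3 (4.8%, against 6.28%). The smallest adjusted p with metastin-10 under control siRNA was that of ADD3, an adducin that protein kinase C phosphorylates, at -0.33 (-0.51 to -0.16, limma adjusted p = 0.119). The kinase GRK3, which marks active receptors for arrestin, differed between the labels with metastin-10 by 0.28 (0.11 to 0.46, limma adjusted p = 0.212). ATP2C2, a Golgi calcium pump, differed there by 0.52 (0.22 to 0.82) at a limma adjusted p of 0.169. PIP5K1B, a kinase that makes the substrate of phospholipase C, differed by -0.55 (-0.81 to -0.28, limma adjusted p = 1.0) with metastin-10 in the GPR54-labelled arrays.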

How the data were processed

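The deposited values are log2 RMA values, as the submitters' processing notes name the method. RMA subtracts background, equalises the array distributions and summarises each probe set. Its software is not given in the sources used here. Of 54675 probe sets, 62 controls were dropped, and the other 54613 entered the tests without a level filter. A model of 4 group means was fitted to each across 12 arrays in limma 3.58.1 (R 4.3.3), leaving 8 residual degrees of freedom. Tests were two-sided, with Benjamini-Hochberg adjustment over all probe sets of a comparison and a threshold of 0.05. The script was tested on simulated data.

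The members and gene lists were chosen with earlier results of these data known. Members described in full are those that passed, those with the smallest p or largest difference in a comparison, and those with the highest or lowest means. Members and probe sets given beside them for a role were chosen after their values were seen.

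Whether arrays with the same number deviate together was checked. Their deviations correlated by 0.17 to 0.44 for metastin-10 under control siRNA, 0.26 to 0.52 for metastin-10 in the GPR54-labelled arrays, 0.11 to 0.54 for the labels with control peptide and -0.15 to 0.26 for the labels with metastin-10. The correlations were positive throughout in the first 3 comparisons and of mixed sign in the last. They cannot decide pairing for each comparison, because pairs in the first 3 would join the metastin-10 groups as well. Whether the numbers mark pairs therefore stays unsettled. The main fit did not treat them as pairs, and the replicate block is an alternative. Alternatives are given in the closing section. Promoter sequences came from RefSeq, GRCh38.p14.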

Additional observations from a re-analysis of the deposited data

Results flagged for a closer look

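KISS1R, the siRNA target, differed between the siRNA arms in its response to metastin-10. The metastin-10 difference was 0.01 (-0.20 to 0.22) in the GPR54-labelled arrays and -0.88 (-1.09 to -0.67) under control siRNA, and the interaction was 0.89 (0.59 to 1.19) on the log2 scale, at a limma adjusted p of 0.04996. This value lies at the threshold. No member of the Gq, phospholipase C, protein kinase C and calcium group passed that test.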

How the results depend on the processing

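Members called with metastin-10 under control siRNA were 0 in the report, 2 with array weights (GNA14 and RGS16), 1 with the replicate block (RGS16) and 1 from replicates 1 and 2 only (GNA14). Leaving out each array gave 0 to 2, the 2 being GNA14 and RGS4 without replicate 3 of control siRNA with metastin-10. Members called for the labels with metastin-10 were 1 in the report, 4 with array weights (DGKA, GNA14, PLCB2 and RGS16), and 0 with the mean of all probe sets, with only the groups compared, and with control siRNA and metastin-10 represented by replicate 3 alone. That setting was chosen after seeing the data, tests 1 array whose spread is taken from the other groups, and says little about stability. Leaving out each array gave 0 to 1. The adjusted p of RGS16 there ran from 0.00306 to 0.376. In that comparison the deviations of same-numbered arrays correlated by -0.15 to 0.26. With the replicate block it kept 1 call, RGS16, at 0.00404, and the block changed no other member's call in any comparison. It gave ATP2C2, of the other pathway genes, 0.0294. The remaining 3 comparisons gave 0 members under every alternative run.

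Directions turned with the most variable probe set for PLCD3 (0.11) and PLCB1 (0.20) with metastin-10 in the GPR54-labelled arrays, and for RGS4 (-0.18) and ITPR2 (0.0289) between the labels with control peptide. PLCD3 also turned with the mean of all probe sets (0.0033), and the interaction of RGS4 with replicate 3 alone (0.0231). The cause was not tested. The KISS1R interaction had adjusted p of 0.00456 to 0.516, and missed the threshold without 11 of the 12 arrays in turn.

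Over all genes the calls with metastin-10 under control siRNA were 120 in the report and 1 to 226 under alternatives, for the labels with metastin-10 205 and 12 to 996, for the labels with control peptide 0 and 0 to 6, and for the interaction 21 and 0 to 117. With 3 arrays a group and no detection calls, small differences and dim probe sets such as GNA14 are limited.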

Other observations

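Some dimmer probe sets of members differed in size or sign from the brightest ones in at least 1 comparison, and were chosen after their values were seen. A PLCG2 probe set with a mean of 5.26 differed by -0.50 (-0.85 to -0.16, limma adjusted p = 0.277) between the labels with metastin-10, where the brightest differed by -0.15 (-0.40 to 0.10). An RGS4 probe set with a mean of 3.52 differed there by -0.34 (-0.58 to -0.10, limma adjusted p = 0.302), and by 0.31 (0.06 to 0.55, limma adjusted p = 0.354) with metastin-10 under control siRNA. With metastin-10 under control siRNA the brightest RGS4 probe set gave a like value, 0.35. An RGS5 probe set with a mean of 5.95 differed by -0.26 (-0.51 to -0.01, limma adjusted p = 0.448) with metastin-10 under control siRNA, opposite in sign to the brightest.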
